A study of Homo sapiens with 12 samples.

Results

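MHC class I antigen presentation was followed through 9 genes: the heavy chains HLA-B, HLA-C, HLA-E and HLA-F, the light chain B2M, the peptide transporter subunits TAP1 and TAP2, the loading factor tapasin (TAPBP) and the transactivator NLRC5. The genes were taken by symbol from a table of 23686 genes. All 9 were found, and all 9 were among the 13956 genes that reached 1 TPM in at least 2 of the 12 libraries. TPM values are transcript abundances corrected for gene length and brought to a common library total, so that levels can be set side by side between genes. None of the 9 genes was at 0 in any library.

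RNA sequencing was done on MDA-MB-231, a breast cancer line grown in DMEM, and on HCT116, a colon cancer line grown in McCoy 5a medium, both with fetal bovine serum. Each line was sampled with control IgG and no hydrogen peroxide (H2O2), with IgG and 100 µM H2O2 for 8 h, and with the antibody anti-Hsp60N and 100 µM H2O2 for 8 h, with 2 libraries in each of the 6 groups. Each line stands for a single cancer, line and medium differ together, and no group had the antibody without H2O2. No label names separate cultures behind the 2 libraries of a group, so the p-values reflect only how much these samples spread, and that spread may be technical.

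As background, class I molecules display peptides from inside the cell to CD8+ T cells. The proteasome cuts proteins into peptides, the TAP1 and TAP2 transporter carries these into the endoplasmic reticulum, and tapasin bridges the transporter to a heavy chain paired with B2M until a peptide is bound. HLA-B and HLA-C are classical, highly polymorphic heavy chains, HLA-E shows leader peptides of other class I chains to the NKG2A receptor of natural killer cells, and HLA-F is a less studied non-classical chain. NLRC5 is the transactivator of class I promoters, where interferon-responsive and NF-kappaB elements also act.

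Across genes, correlations were 0.994 to 0.996 within groups and 0.787 to 0.796 between the lines. The summed level of 10 epithelial markers was 1742 to 1970 TPM in MDA-MB-231 and 5985 to 6339 TPM in HCT116, and that of 8 mesenchymal markers 3144 to 3585 TPM and 316 to 346 TPM. Much of these sums came from few genes. In MDA-MB-231 IgG replicate 1, KRT8, KRT18 and KRT19 stood at 802, 650 and 476 TPM and CDH1 at 0.61 TPM. In HCT116 IgG replicate 1, CAV1 stood at 299 TPM and VIM at 5.23 TPM. The mesenchymal markers CDH2, TWIST2 and SPARC were under 1 TPM in all libraries of both lines. Of the intestinal markers, CDX2 stood at 12.8 to 17.2 TPM in HCT116 and was listed at 0 in all MDA-MB-231 libraries. CDX1 was listed at 0 in all libraries of both lines, and VIL1 was at most 0.07 TPM in any library. Of 10 leukocyte markers, MS4A1, NCAM1 and NKG7 were listed at 0 in all MDA-MB-231 libraries, and the list summed to 7.29 to 10.2 TPM there and to 0.68 to 2.73 TPM in HCT116. HSPD1, which encodes the Hsp60 chaperonin named in the antibody's label, had a log2 fold change under H2O2 of -0.18 in HCT116 (limma adjusted p = 0.0147) and of 0.10 in MDA-MB-231 (adjusted p = 0.308).

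All 9 genes were lower in HCT116 than in MDA-MB-231 under IgG. The log2 fold change of TPM + 1 ran from -3.22 for HLA-B to -0.41 for HLA-C, with a median of -1.59 against a median of 0.11 over all genes. The test was limma with Benjamini-Hochberg adjustment over all genes kept, at an adjusted p of 0.05, and by it 82.8% of all genes differed between the lines and 37.3% of all genes were lower in HCT116. A call in this comparison therefore says little. Regardless of direction, the median size of the log2 fold change was 1.59 for the 9 genes and 0.69 over all genes. HLA-C (-0.41) and TAP2 (-0.64) differed by less than that median over all genes. In bulk RNA, fewer cells with a transcript and less RNA per cell cannot be told apart.

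B2M, the light chain shared by all class I molecules, was the most abundant of the 9 in both lines. Under IgG it stood at 2048 and 2097 TPM in the MDA-MB-231 libraries and at 504 and 458 TPM in those of HCT116, a ratio of 4.31 between the lines (log2 fold change -2.11). HLA-B stood at 1151 and 1164 TPM in MDA-MB-231 and at 121 and 127 TPM in HCT116, a ratio of 9.35. The libraries of the lines lay far apart for both genes. HLA-C stood at 402 and 424 TPM against 306 and 316 TPM, a ratio of 1.33, the smallest of the 9. HLA-E stood at 404 and 411 TPM against 115 and 120 TPM, a ratio of 3.47. HLA-F was low in both, at 35.1 and 37.9 TPM against 10.8 and 10.6 TPM. The HLA genes are related in sequence, to differing degrees, and differ between people. The counting could have divided their reads in ways the table does not show, so the split among them is uncertain. HLA-F also overlaps an antisense gene, HLA-F-AS1, and since no source used here gives the strand setting, reads of that pair cannot be told apart.

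The make-up of the heavy chains differed as well. Of the summed TPM of the 4 heavy chains under IgG, HLA-B held 57.5% ± 0.439 (SD, n = 2) in MDA-MB-231 and 22% ± 0.153 in HCT116. HLA-C held 20.5% ± 0.441 and 55.2% ± 0.204, so that the leading heavy chain was HLA-B in MDA-MB-231 and HLA-C in HCT116. HLA-E kept a similar share, 20.2% ± 0.0724 and 20.9% ± 0.124. B2M amounted to 1.03 ± 0.000778 times the heavy-chain sum in MDA-MB-231 and to 0.855 ± 0.0800 times in HCT116.

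**Figure D1:**
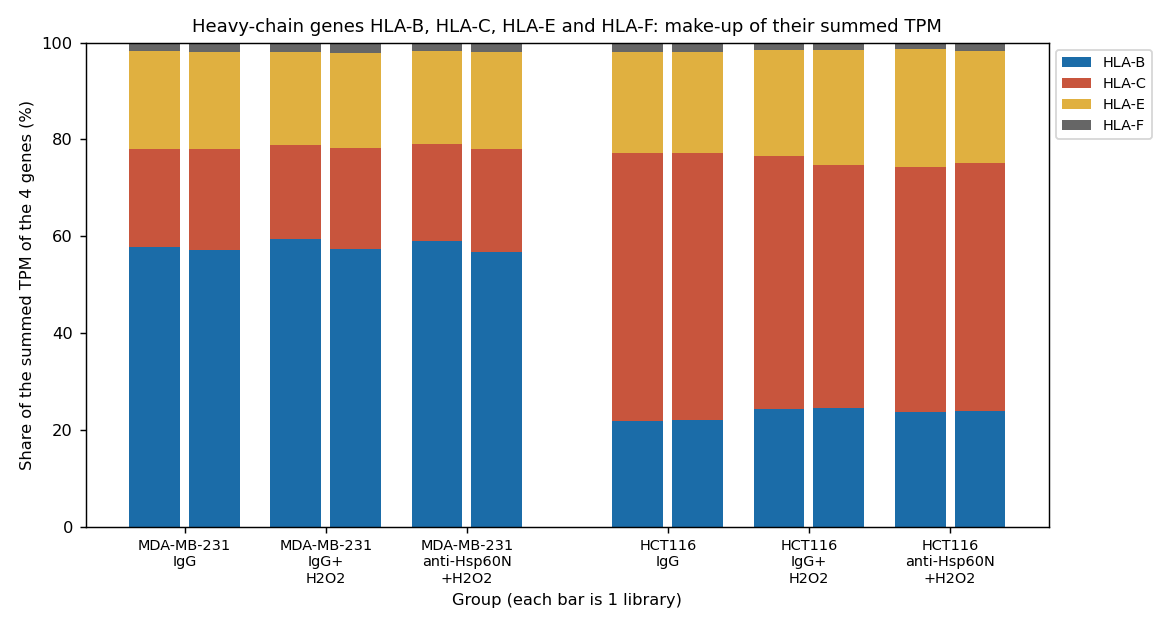
Share of the summed TPM of HLA-B, HLA-C, HLA-E and HLA-F held by each gene (vertical axis, percent), with 1 bar per library, grouped by line and treatment. HLA-B holds the largest share in all 6 MDA-MB-231 libraries and HLA-C in all 6 HCT116 libraries.

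The loading machinery was lower in HCT116 by factors between those of HLA-C and HLA-E. Under IgG, TAP1 stood at 96.1 and 94.8 TPM in MDA-MB-231 and at 30.9 and 36.0 TPM in HCT116, a ratio of 2.85. TAP2, which forms the transporter together with TAP1, stood at 75.8 and 79.7 TPM against 47.3 and 51.9 TPM, a ratio of 1.57. TAP1 was thus above TAP2 in MDA-MB-231, with a TAP1 to TAP2 ratio of 1.23 ± 0.0556, and below it in HCT116, with a ratio of 0.673 ± 0.0293. TAPBP stood at 142 and 146 TPM against 45.9 and 48.2 TPM, a ratio of 3.06. NLRC5 was the lowest of the 9, at 6.79 and 7.09 TPM against 2 and 2.53 TPM, and its ratio was also 3.06. All 9 calls between the lines held under every one of the 20 alternative settings, with HLA-C between -0.54 and -0.30.

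The order of the levels under IgG in MDA-MB-231 was B2M, HLA-B, HLA-C, HLA-E, TAPBP, TAP1, TAP2, HLA-F and NLRC5, and only the libraries of HLA-C and HLA-E overlapped among neighbours. In HCT116 the order was B2M, HLA-C, HLA-B, HLA-E, TAP2, TAPBP, TAP1, HLA-F and NLRC5, and only those of TAP2 and TAPBP overlapped. Under anti-Hsp60N with H2O2, the HCT116 libraries of HLA-E and HLA-B overlapped, as did those of TAPBP and TAP2 and those of TAP2 and TAP1.

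**Figure D2:**
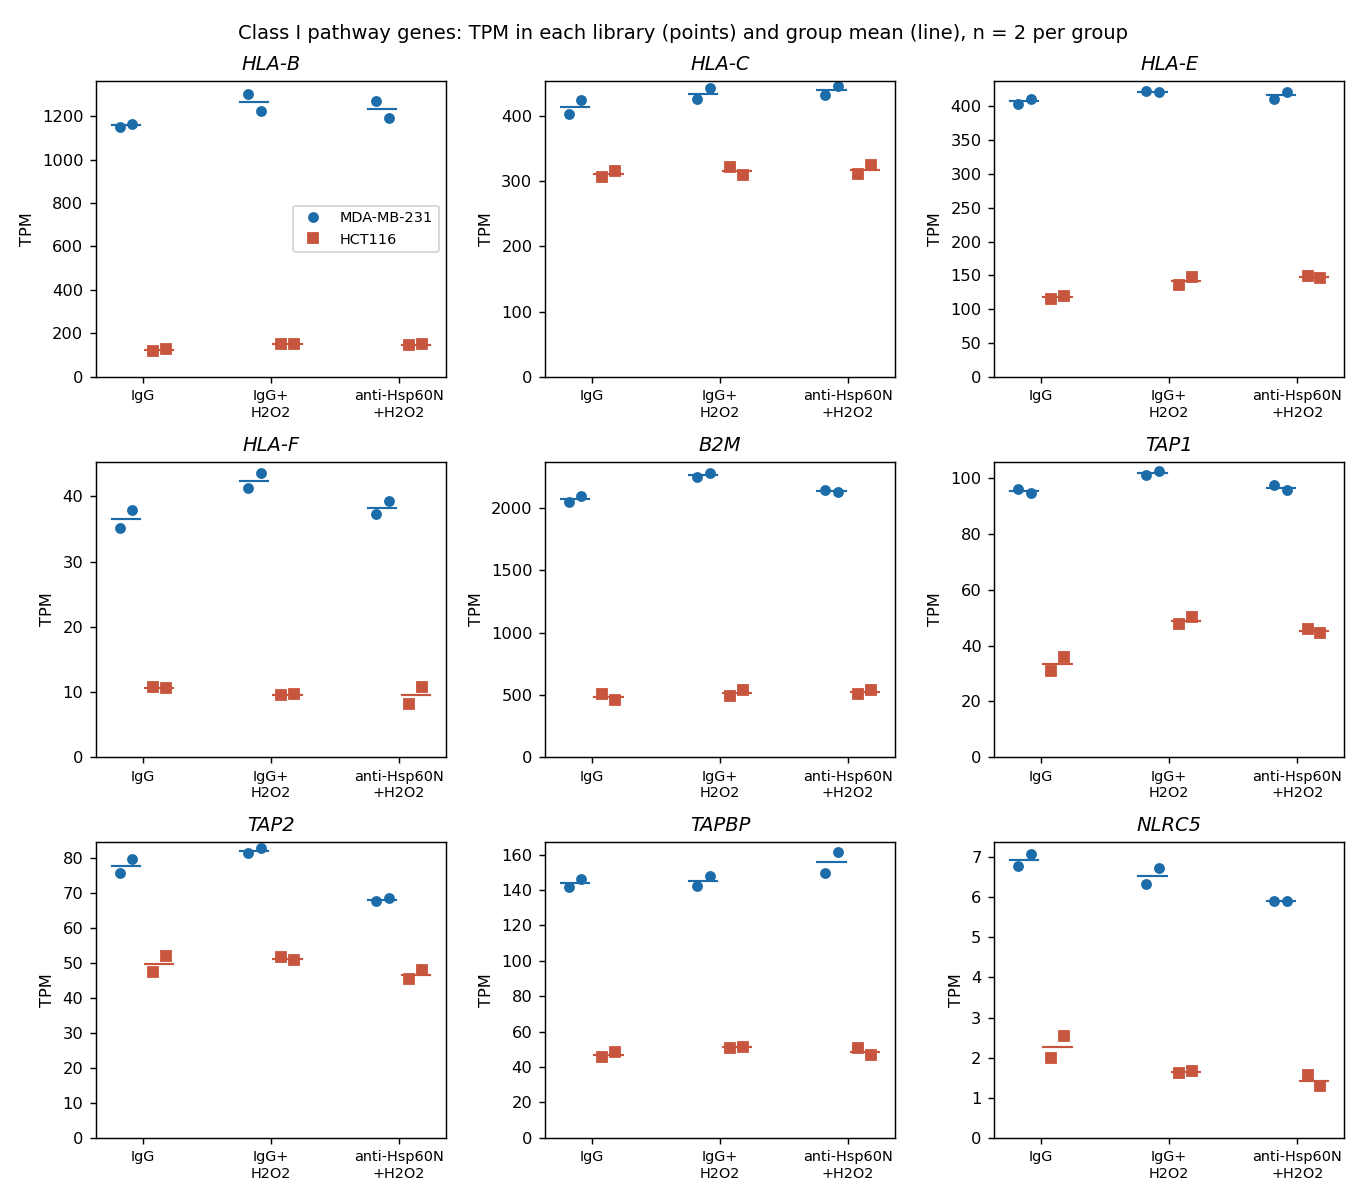
TPM of each of the 9 genes (vertical axes, each from 0) in every library, by treatment, with circles for MDA-MB-231, squares for HCT116 and a line at the mean of the 2 libraries. In every panel the MDA-MB-231 libraries lie above those of HCT116. Within HCT116 the IgG libraries of TAP1, HLA-B and HLA-E lie below those with H2O2.

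In HCT116, H2O2 was followed by more TAP1, HLA-B and HLA-E RNA and less NLRC5 RNA. HLA-C, a classical heavy chain like HLA-B, and TAP2, the other transporter subunit, did not pass the test. The limma test thus called 4 of the 9 genes, 3 higher and 1 lower, where 32.9% of all genes were called, 15.4% higher and 17.5% lower. A share of 4 in 9 is near that background. Libraries of the 2 groups did not overlap for 6 of the 9 genes, and for 62.8% of all genes. The median log2 fold change of the 9 was 0.10, and that of all genes -0.01.

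The regions upstream of HLA-B, HLA-C, TAP1 and TAP2 are printed because these form 2 pairs of related genes, and in each pair 1 gene passed the test and the other did not. The difference of the changes within a pair was not tested. Each is the 250 bases before the start of the gene in RefSeq, build GRCh38.p14, on the minus strand and written 5′ to 3′ in the direction of the gene. Capitals mark matches to an interferon-stimulated response type element, GAAA and GAAA spaced by any 2 bases, or to the kappaB consensus, searched on both strands. They lie at chr6:31357180-31357429 for HLA-B, chr6:31272093-31272342 for HLA-C, chr6:32853705-32853954 for TAP1 and chr6:32838740-32838989 for TAP2. TAP1 had a further entry, and the one at the start of the gene is shown. The letters are those of the reference and not of the lines.
HLA-B: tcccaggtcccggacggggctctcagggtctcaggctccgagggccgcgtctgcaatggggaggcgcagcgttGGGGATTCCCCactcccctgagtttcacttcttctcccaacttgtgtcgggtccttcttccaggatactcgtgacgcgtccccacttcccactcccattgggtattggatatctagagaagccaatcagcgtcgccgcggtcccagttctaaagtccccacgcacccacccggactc
HLA-C: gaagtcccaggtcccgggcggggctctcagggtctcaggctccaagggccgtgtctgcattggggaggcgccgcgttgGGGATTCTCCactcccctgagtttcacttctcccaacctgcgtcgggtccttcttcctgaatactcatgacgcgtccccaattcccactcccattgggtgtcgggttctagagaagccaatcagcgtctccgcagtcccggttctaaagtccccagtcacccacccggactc
TAP1: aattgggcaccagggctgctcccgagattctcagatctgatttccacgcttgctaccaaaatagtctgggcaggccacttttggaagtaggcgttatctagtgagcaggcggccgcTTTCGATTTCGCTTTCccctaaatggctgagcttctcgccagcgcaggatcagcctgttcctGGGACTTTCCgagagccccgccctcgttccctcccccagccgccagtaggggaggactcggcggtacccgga
TAP2: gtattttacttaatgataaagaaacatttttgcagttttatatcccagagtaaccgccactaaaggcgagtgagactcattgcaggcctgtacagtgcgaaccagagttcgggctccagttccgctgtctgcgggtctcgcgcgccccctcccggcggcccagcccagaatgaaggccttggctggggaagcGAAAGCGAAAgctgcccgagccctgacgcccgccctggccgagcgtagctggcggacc

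The upstream sequences of HLA-B and HLA-C were 89.0% identical, with 226 identical bases in 254 aligned columns. HLA-B held 2 overlapping kappaB matches between 177 and 167 bases before the start and HLA-C 1 match between 172 and 163 bases before it. TAP1 held 2 overlapping interferon-type matches between 134 and 119 bases before the start and a kappaB match between 72 and 63, and TAP2 held 1 interferon-type match between 58 and 49. Of the 7 genes with an entry, 5 held an interferon-type match, against 3.02% of 35116 promoters, and 5 held a kappaB match, against 9.96%. CCAAT was present in 5 of 7 against 32.0%, and TGACG, the core of cAMP response elements, in 4 of 7 against 21.2%. The interferon-type and kappaB matches did not overlap each other in any of the 7. HLA-E and NLRC5 had no entry. HLA-B and HLA-C had no interferon-type match. The fixed patterns used here miss elements whose letters or spacing differ, so a gene without a match may still hold such an element. A match describes letters and not binding.

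TAP1 showed the largest change. Its TPM in HCT116 went from 30.9 and 36.0 under IgG to 47.8 and 50.1 under IgG with H2O2, and both H2O2 libraries lay above both IgG libraries. The group means differed by a factor of 1.46 (log2 fold change 0.54, SE 0.06, limma adjusted p = 0.000187). TAP2 stood at 47.3 and 51.9 TPM under IgG and at 51.7 and 50.8 TPM under H2O2, with overlapping libraries (log2 0.05, 95% interval -0.08 to 0.17, adjusted p = 0.575). The TAP1 to TAP2 ratio went from 0.673 ± 0.0293 to 0.956 ± 0.0434 (SD, n = 2), with libraries that did not overlap.

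Among the heavy chains, HLA-B went from 121 and 127 TPM to 150 and 152 TPM, with all H2O2 libraries above the IgG libraries (log2 0.29, SE 0.05, limma adjusted p = 0.00136). HLA-E went from 115 and 120 TPM to 135 and 147 TPM, again without overlap (log2 0.27, SE 0.05, adjusted p = 0.00188). HLA-C stood at 306 and 316 TPM and at 322 and 310 TPM, with overlapping libraries (log2 0.02, 95% interval -0.08 to 0.12, adjusted p = 0.764). HLA-F, at 10.8 and 10.6 TPM and then at 9.56 and 9.65 TPM, did not pass (log2 -0.14, adjusted p = 0.317). The 3 rises held under all 22 alternative settings, with log2 values of 0.25 to 0.38 for HLA-B, 0.21 to 0.36 for HLA-E and 0.43 to 0.65 for TAP1.

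B2M stood at 504 and 458 TPM under IgG and at 494 and 540 TPM under H2O2, and its libraries overlapped (log2 0.10, 95% interval -0.02 to 0.23, limma adjusted p = 0.194). TAPBP stood at 45.9 and 48.2 TPM and at 50.7 and 51.4 TPM (log2 0.12, 95% interval -0.01 to 0.24, adjusted p = 0.141). Neither the light chain nor tapasin passed the test, though each did in 1 of the 22 alternative settings. For TAPBP this was quantile normalization (adjusted p = 0.0455), and for B2M it was a setting chosen after seeing the data.

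NLRC5 went from 2 and 2.53 TPM to 1.62 and 1.67 TPM, the lowest levels of the set (log2 -0.30, SE 0.10, limma adjusted p = 0.0383). Both H2O2 libraries lay below both IgG libraries. This call was lost in 11 of 22 alternative settings, among them leaving out any of 7 libraries (adjusted p = 0.0514 to 0.240): HCT116 IgG replicate 2 and both IgG with H2O2 replicates, and in MDA-MB-231 both IgG with H2O2 and both anti-Hsp60N with H2O2 replicates. Without HCT116 IgG replicate 2 the log2 fold change was -0.18. With replicate number as a block, the adjusted p was 0.0623.

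In MDA-MB-231, limma called 0 of the 9 genes under H2O2, where 2.66% of all genes passed. At an unadjusted p under 0.05, 1 gene, HLA-B, stood out, against 16.7% of all genes. HLA-B went from 1151 and 1164 TPM to 1303 and 1224 TPM (log2 0.13, 95% interval 0.02 to 0.23, adjusted p = 0.214). B2M went from 2048 and 2097 TPM to 2247 and 2281 TPM (log2 0.13, adjusted p = 0.303). HLA-F went from 35.1 and 37.9 TPM to 41.3 and 43.6 TPM (log2 0.21, adjusted p = 0.319). For these 3 genes the H2O2 libraries lay above the IgG libraries, as they did for HLA-C, HLA-E, TAP1 and TAP2.

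The remaining MDA-MB-231 values were smaller. TAP1 stood at 96.1 and 94.8 TPM and then at 101 and 102 TPM (log2 0.09, 95% interval -0.05 to 0.23, limma adjusted p = 0.545). The other log2 values were 0.07 for HLA-C, 0.05 for HLA-E, 0.08 for TAP2, 0.01 for TAPBP and -0.08 for NLRC5. In 8 of the 9 genes, all but TAPBP, the 2 groups did not overlap, and of these only NLRC5 was lower under H2O2. Among all genes 47.6% did not overlap.

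**Figure D3:**
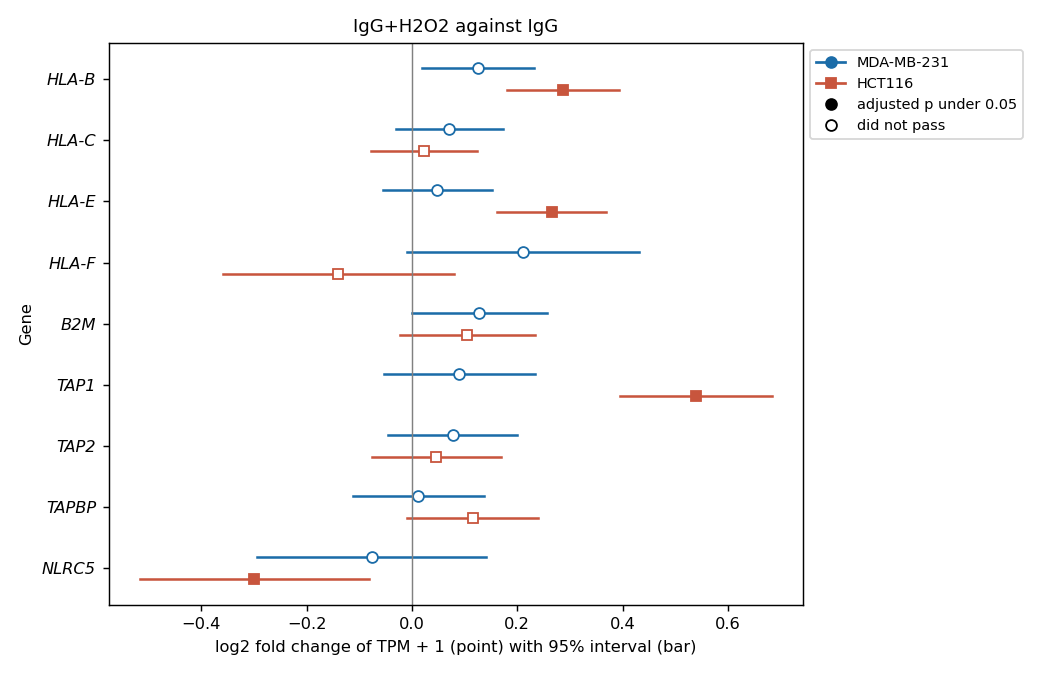
Log2 fold change of TPM + 1 for IgG with H2O2 against IgG (horizontal axis) of each gene in MDA-MB-231 (circles) and HCT116 (squares), with the 95% interval from limma as a bar. Filled symbols had an adjusted p under 0.05: TAP1, HLA-B, HLA-E and NLRC5 in HCT116, and none in MDA-MB-231.

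Whether the lines responded differently was tested as the difference of their H2O2 changes. The TAP1 change was larger in HCT116 than in MDA-MB-231, by 0.45 log2 (SE 0.09, limma adjusted p = 0.00892), and that of HLA-E by 0.22 (SE 0.07, adjusted p = 0.0472). These 2 of 9 genes passed, both with the higher change in HCT116, against 17.4% of all genes in either direction and 7.65% in that direction. The TAP1 difference held in all 20 alternative settings, with adjusted p up to 0.0355. The HLA-E difference was lost in 13 of 20, among them leaving out any of 10 of the 12 libraries (adjusted p = 0.0566 to 0.147), the exceptions being HCT116 IgG replicate 2 and IgG with H2O2 replicate 1, and with replicate number as a block (adjusted p = 0.0583). HLA-B (difference 0.16, 95% interval 0.01 to 0.31, adjusted p = 0.129), HLA-F (-0.35, adjusted p = 0.112) and NLRC5 (-0.22, adjusted p = 0.298) did not pass. HLA-B passed after quantile normalization (adjusted p = 0.0215), and HLA-F passed without HCT116 anti-Hsp60N with H2O2 replicate 1 (adjusted p = 0.0333) or replicate 2 (adjusted p = 0.0338). NLRC5 was called in HCT116 and not in MDA-MB-231, and a difference between the lines was not shown for it.

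The antibody comparison asks whether expression under H2O2 differs when anti-Hsp60N replaces IgG. None of the 9 genes passed in either line. In MDA-MB-231 limma called 0 of 9 where 0.0143% of all genes passed, and in HCT116 0 of 9 where 0.0215% passed. At an unadjusted p under 0.05 there was 1 gene in each line, TAP2 in both, against 13.1% of all genes in MDA-MB-231 and 5.16% in HCT116. The median log2 fold change of the 9 was -0.07 in MDA-MB-231 and -0.03 in HCT116, and over all genes it was -0.02 and 0.01.

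TAP2 in MDA-MB-231 stood at 81.4 and 82.8 TPM under IgG with H2O2 and at 67.7 and 68.6 TPM under anti-Hsp60N with H2O2, below the 75.8 and 79.7 TPM of IgG alone. The groups did not overlap (log2 -0.26, SE 0.06, 95% interval -0.39 to -0.14, limma adjusted p = 0.236). In HCT116 TAP2 stood at 51.7 and 50.8 TPM and at 45.5 and 47.9 TPM, also without overlap (log2 -0.13, adjusted p = 0.92). Libraries of 48.1% of all genes did not overlap in MDA-MB-231 in this comparison and of 37.4% in HCT116. TAP1 stood at 101 and 102 TPM and then at 97.5 and 95.7 TPM in MDA-MB-231, and at 47.8 and 50.1 TPM and then at 45.8 and 44.6 TPM in HCT116. The TAP1 to TAP2 ratio in MDA-MB-231 was 1.24 ± 0.00262 under IgG with H2O2 and 1.42 ± 0.0329 with the antibody.

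None of the other 8 genes had an unadjusted p under 0.05. NLRC5 stood at 6.34 and 6.72 TPM under IgG with H2O2 and at 5.91 TPM in both antibody libraries of MDA-MB-231 (log2 -0.12), and at 1.62 and 1.67 TPM and then at 1.56 and 1.29 TPM in HCT116 (log2 -0.13). HLA-F in MDA-MB-231 went from 41.3 and 43.6 TPM to 37.2 and 39.2 TPM (log2 -0.15). The groups did not overlap in these 3 comparisons. They also did not overlap for B2M in MDA-MB-231 and for TAP1 and TAPBP in both lines. TAPBP had a log2 fold change of 0.10 in MDA-MB-231 and of -0.07 in HCT116. HLA-B stood at 1270 and 1192 TPM in MDA-MB-231 with the antibody, and at 145 and 151 TPM in HCT116. B2M stood at 2146 and 2128 TPM, and at 505 and 543 TPM. The 95% intervals of the change reached from -0.14 to 0.07 for HLA-B and from -0.21 to 0.04 for B2M in MDA-MB-231, and from -0.14 to 0.08 and from -0.11 to 0.15 in HCT116. Changes within those bounds cannot be told from none with 2 libraries a group. The difference between the lines in the antibody change passed for 0 of 9 genes in limma, 0 also at an unadjusted p under 0.05, where 0.0287% of all genes passed.

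**Figure D4:**
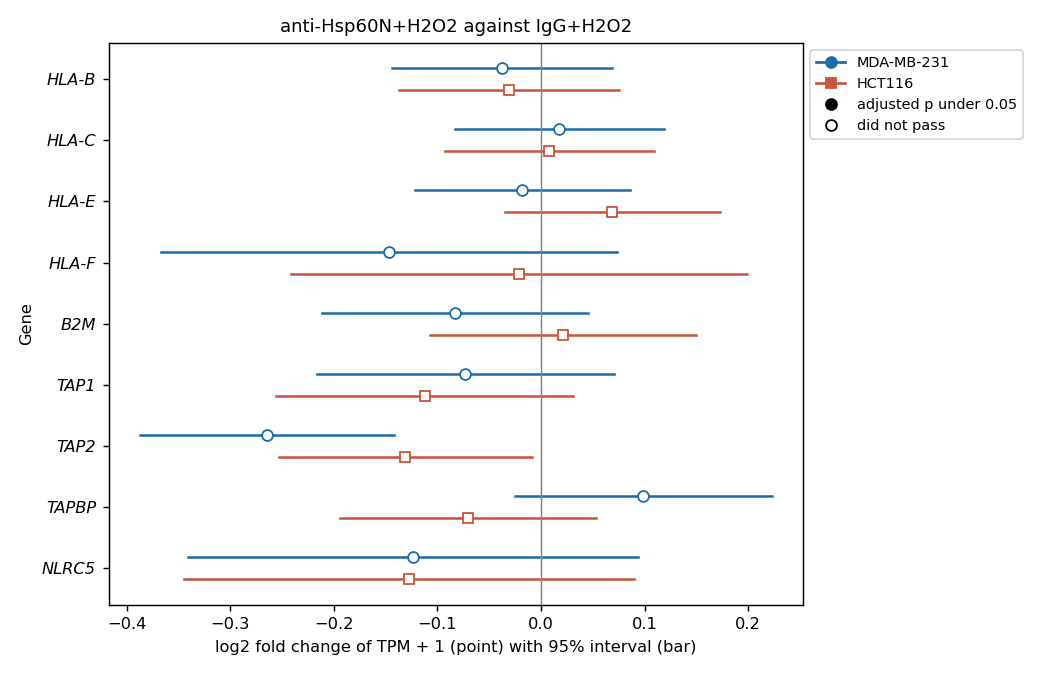
Log2 fold change of TPM + 1 when anti-Hsp60N replaced IgG under H2O2 (horizontal axis) of each gene in MDA-MB-231 (circles) and HCT116 (squares), with the 95% interval from limma, unadjusted for the number of genes, as a bar. All symbols are open, since none had an adjusted p under 0.05, and only the TAP2 bars lie wholly below 0.

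Against IgG without H2O2, the antibody with H2O2 shares its control libraries with the H2O2 comparison above, so these values are no independent support. In HCT116 limma called 4 of 9 genes, where 34.3% of all genes passed, 16.8% higher and 17.5% lower. They were HLA-B (log2 0.26, adjusted p = 0.00244), HLA-E (0.33, adjusted p = 0.000454) and TAP1 (0.43, adjusted p = 0.000717) higher, and NLRC5 (-0.43, adjusted p = 0.00721) lower. The NLRC5 libraries were 1.56 and 1.29 TPM with the antibody and 2 and 2.53 TPM under IgG. Its call was lost without HCT116 IgG replicate 2 (adjusted p = 0.0576) and without anti-Hsp60N with H2O2 replicate 2 (adjusted p = 0.0651). B2M passed without IgG replicate 1 (adjusted p = 0.0377) and after quantile normalization (adjusted p = 0.0390), and HLA-F passed as lower without anti-Hsp60N with H2O2 replicate 2 (adjusted p = 0.0161). In MDA-MB-231 limma called 0 of 9 where 3.4% of all genes passed, and 1 gene, TAP2, had an unadjusted p under 0.05 (log2 -0.19, adjusted p = 0.0998). After median-of-ratios scaling TAP2 passed there, with an adjusted p of 0.0435.

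The neighbouring steps of the pathway were counted from lists of textbook members. Between the lines under IgG, all 5 immunoproteasome genes were lower in HCT116, where 37.3% of all genes were lower and 82.8% differed, among them PSMB8, a catalytic subunit induced by interferon, at 0.27 against 188 TPM, and PSMB9, another such subunit, at 6.68 against 63.5 TPM. Of their 4 constitutive counterparts 0 were higher and 1 was lower. Of 9 peptide loading and trimming genes 3 were higher and 5 lower, among them ERAP1, an aminopeptidase that trims peptides, at 6.11 against 35.3 TPM. All 10 class II genes were lower, among them CD74, the invariant chain, at 0.15 against 868 TPM. Leukocytes carry class II as well. In the MDA-MB-231 libraries PTPRC, their common marker, was at most 0.04 TPM, while the myeloid markers CD14 and CSF1R stood at 4.16 to 6.46 TPM and 2.03 to 3.24 TPM, and the part of the summed leukocyte list in the class II levels was not tested. Of 15 interferon-stimulated genes 1 was higher and 14 lower, with IFIT3 at 1.89 against 188 TPM and GBP1 listed at 0 in both HCT116 libraries against 44.5 TPM. IRF1, an interferon-induced activator of class I promoters, stood at 11.5 against 39.3 TPM. IFNB1 and IFNG, which encode interferons, were listed at 0 in all 12 libraries. The list medians were -1.04 for the immunoproteasome, -4.33 for class II and -3.65 for interferon-stimulated genes, beside -1.59 for the 9 class I genes and 0.11 over all genes.

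Under H2O2 in HCT116, 5 of 14 class I promoter factors rose and 0 fell, where 15.4% of all genes rose and 17.5% fell, with a list median of 0.14 against -0.01 over all genes. IRF1 went from 11.5 to 15.8 TPM (log2 0.43, limma adjusted p = 0.000425), and its change differed from that in MDA-MB-231 by 0.48 (adjusted p = 0.00439). NFKB1 (log2 0.21) and RELA (log2 0.19), subunits of NF-kappaB, rose as well. Of 12 interferon signalling genes kept, 4 rose and 1 fell. Among those that rose were SOCS3, a feedback inhibitor of cytokine signalling (log2 0.46), and IFNGR1, a subunit of the interferon gamma receptor (log2 0.38). Of 15 interferon-stimulated genes 0 rose and 3 fell, a share near the 17.5% of all genes that fell. They were UBE2L6, an enzyme of ISG15 conjugation, from 27.0 to 19.8 TPM, and at low levels IFIT1 from 2.81 to 1.62 TPM and BST2, or tetherin, from 2.62 to 1.17 TPM.

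Of the 5 immunoproteasome genes 0 rose and 2 fell under H2O2 in HCT116. In short lists such as these, counts of 1 or 2 stand against 15.4% of all genes that rose and 17.5% that fell. PSMB9, which lies head to head with TAP1 on the opposite strand, went from 6.68 to 5.04 TPM (log2 -0.35, limma adjusted p = 0.0484), while TAP1 rose. PSMB10, the remaining catalytic subunit of the immunoproteasome, went from 43.4 to 34.1 TPM (log2 -0.34, adjusted p = 0.00363). The 4 constitutive counterparts gave 0 higher and 2 lower, PSME3 and PSMB6. Of the 9 loading and trimming genes, CALR, the chaperone calreticulin, fell from 1450.3 to 1102 TPM (log2 -0.40) and ERAP2, an aminopeptidase, rose from 1.19 to 1.69 TPM (log2 0.30). Of 10 class II genes 0 rose and 2 fell, HLA-DPA1 and HLA-DRB1, both at or under 1.45 TPM.

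Ligands read by natural killer and T cells moved in both directions under H2O2 in HCT116. Of 8 ligands of the activating receptor NKG2D, 3 rose and 2 fell, where 32.9% of all genes were called, 15.4% higher and 17.5% lower. ULBP1 rose from 4.84 to 12.3 TPM (log2 1.19, limma adjusted p = 9.63e-06) and RAET1L from 1.42 to 4.55 TPM (log2 1.2), while RAET1G fell from 0.945 to 0.335 TPM. RAET1L and RAET1G are close copies, so their split is uncertain. Of 6 T-cell interaction ligands kept, CD274, which encodes PD-L1, rose from 1.62 to 2.93 TPM (log2 0.59) and CD276, or B7-H3, fell (log2 -0.24). HLA-H, a class I pseudogene similar to the classical chains and so of uncertain count, rose from 1.78 to 2.66 TPM and HFE, a class I-like regulator of iron uptake, fell from 14.5 to 10.8 TPM, the 2 called among 7 other class I and class I-like genes kept. None of the 3 genes of polycomb repressor complex 2, which can silence class I genes, passed. In MDA-MB-231 limma called 2.66% of all genes under H2O2, and of all 11 lists only the NKG2D ligands held a call. It was MICB, which rose from 79.0 to 94.8 TPM (log2 0.26, limma adjusted p = 0.0230) and fell from 47.3 to 42.1 TPM in HCT116.

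**Figure D5:**
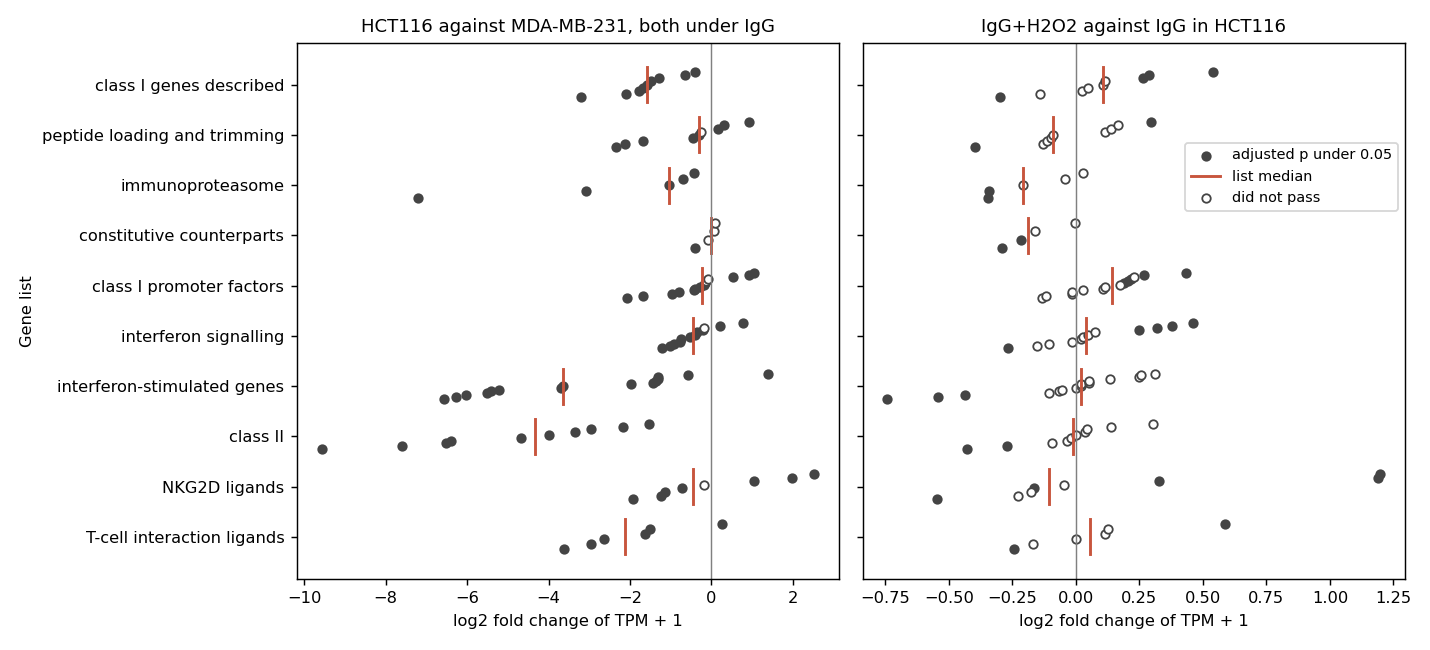
Log2 fold change of TPM + 1 of each gene (points) by list (rows), between the lines under IgG on the left and for H2O2 in HCT116 on the right, where filled points had an adjusted p under 0.05 and the vertical bar is the list median. The 9 class I genes, all 10 class II genes and all 5 immunoproteasome genes lie below 0 on the left, and the largest rises on the right are the NKG2D ligands ULBP1 and RAET1L.

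Within the lines, the 9 genes did not vary as 1 block over the 12 libraries. Centred on each line's mean, HLA-B and TAP1 had a Pearson correlation of 0.91, HLA-E and TAP1 of 0.90 and HLA-B and HLA-E of 0.86, and HLA-B and NLRC5 one of -0.75. These correlations describe 12 libraries that share lines and treatments. By the same measure, among 11502 genes compared, the genes most like TAP1 were RXRB (0.99), CYLD and ATXN7, those most like HLA-B were PSPH (0.98), BSDC1 and ZMAT3, and those most like HLA-E were RPL4 (0.99), ZNF280B and RND3. NLRC5 was nearest to B3GALTL (0.98), B2M to CPNE8 (0.95), HLA-C to RNPEPL1 (0.93), TAPBP to IL17RC (0.91), TAP2 to NIPSNAP3A (0.89) and HLA-F to LOC100506233 (0.88).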

How the data were processed

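The authors deposited TPM per gene in 1 table, with the same total in every library, so sequencing depth is unknown. Per the submitters' processing notes, bcl2fastq 2.20, STAR, RSEM and the build hg19 were named, with no role or order, while annotation, strand setting and other versions were not given in the sources used here. RSEM-type TPM of related HLA genes depends on how shared reads were divided.

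From these values log2(TPM + 1) was computed, which understates changes of low genes. The limma 3.58.1 test (R 4.3.3) used a variance trend and 6 group means over all 12 libraries, two-sided, with 6 residual degrees of freedom; p-values were adjusted by Benjamini-Hochberg over the 13956 genes with at least 1 TPM in at least 2 libraries, in 9 comparisons. It was tested on simulated data. Columns were matched by label, with 0 left unmatched. The members, lists and tests were chosen with earlier results of these data known. The text names all members, per list and comparison up to 3 called genes of smallest p, and the most correlated genes of each member; some genes that this rule names are not reported here. Alternatives covered pseudocount, filter, scaling, variance trend, lines fitted alone, replicate block and leaving out each library. Figures used matplotlib 3.10.9.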

Additional observations from a re-analysis of the deposited data

Results flagged for a closer look

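The change of 2 genes under H2O2 differed between the lines by a test of the difference itself. For TAP1, the transporter subunit, the log2 change in HCT116 exceeded that in MDA-MB-231 by 0.45 (limma adjusted p = 0.00892), with HCT116 libraries at 30.9 and 36.0 TPM under IgG and 47.8 and 50.1 TPM under H2O2, and MDA-MB-231 libraries at 96.1 and 94.8 TPM and 101 and 102 TPM. For HLA-E, the heavy chain read by NKG2A, the difference was 0.22 (limma adjusted p = 0.0472), and it was lost in 13 of 20 alternative settings. The lines also differed in medium, whose part in these differences cannot be told apart.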

How the results depend on the processing

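With 2 libraries a group and no depth in TPM, changes of low genes such as NLRC5 and HLA-F are the least certain. Of the values per gene and setting, 1605 kept direction and side of the threshold, 26 lost and 9 gained a call, and 43 changed sign, none of them called. The labels do not tie replicate numbers across groups, and deviations of same-numbered libraries correlated at -0.13 to 0.16. With the replicate block, genes called for the antibody in MDA-MB-231 numbered 1, and 1 class I gene kept a line difference under H2O2; in HCT116 under H2O2 the block left 3 class I genes called. Crossing the HCT116 IgG numbers, chosen after seeing the data, gave 5.

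For all genes under H2O2 in MDA-MB-231, 181 were higher and 190 lower, 154 and 279 with median-of-ratios scaling, 157 and 242 with quantile normalization, and 86 passed with the line fitted alone. The antibody in MDA-MB-231 gave 2 genes, 1 with a pseudocount of 5 and 0 with a stricter filter or the line fitted alone. In HCT116 it gave 3, and 5 without a variance trend. Antibody with H2O2 against IgG in MDA-MB-231 gave 101 with the line fitted alone, and 1 class I gene after median-of-ratios scaling. The line difference under H2O2 kept 1 class I gene with no filter or no trend, and that of the antibody gave 2 genes in all under a stricter filter. The cause of these shifts was not tested.

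Leaving out 1 library gave 116 to 434 genes under H2O2 in MDA-MB-231 and 3000 to 4650 in HCT116 (lowest without IgG with H2O2 replicate 2). The antibody gave 1 to 3 and 3 to 7, and antibody with H2O2 against IgG 145 to 551 and 2953 to 4817. The line difference gave 1251 to 2335 genes and 1 to 2 class I genes under H2O2.

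The changed signs were these log2 values, with ranges over 1 library left out. Under H2O2, TAPBP in MDA-MB-231 was -0.019 with median-of-ratios scaling, -0.0070 with quantile normalization and -0.014 to 0.039; in HCT116 HLA-C was -0.0056 to 0.051 and TAP2 -0.020 to 0.11. For the antibody in MDA-MB-231, HLA-E was 0.0039 after median-of-ratios scaling and -0.037 to 0.00085, HLA-C -0.0060 after quantile normalization and -0.012 to 0.047, and HLA-B -0.083 to 0.0080. In HCT116, HLA-C was -0.0022 with median-of-ratios scaling, -0.018 with quantile normalization and -0.021 to 0.037, B2M -0.044 to 0.086 and HLA-F -0.20 to 0.16. Antibody with H2O2 against IgG in HCT116 gave HLA-F -0.34 to 0.019 and TAPBP -0.012 to 0.10. The line difference under H2O2 was 0.0073 for B2M after median-of-ratios scaling and -0.092 to 0.047, and 0.029 for TAP2 after quantile normalization and -0.098 to 0.035. That of the antibody was -0.026 and -0.035 for HLA-B after both scalings and -0.039 to 0.052, 0.031 for NLRC5 with a pseudocount of 5 and -0.084 to 0.076, -0.039 to 0.020 for HLA-C and -0.055 to 0.31 for HLA-F.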
